A study of Arabidopsis thaliana with 6 samples.

Results

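APS3 (AT4G14680), APS4 (AT5G43780) and SIR (AT5G04590) encode enzymes with which Arabidopsis thaliana, the thale cress, turns sulfate into sulfide. They were taken as every probe set that names 1 of these genes alone, which gave 1 probe set each (15647_s_at, 16029_s_at and 19833_s_at). These 3 probe sets stand among 8247 on the array that are not controls, of which 3784 name exactly 1 gene. All of them reached the filter on low signals, and none was near it, as their lowest signal on any array was 76.2.

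Gene expression was measured in roots and in rosette leaves of accession Col-4 (stock N933), grown hydroponically with days at 22 °C and nights at 18 °C and harvested at growth stage 6.00. The 6 groups were roots with no added lead, with 25 ppm and with 50 ppm lead, and rosette leaves at the same 3 doses, with 1 array per group. Lead was given as lead nitrate, in a pair of additions to the nutrient solution a week apart, between stages 3.90 and 5.10. Whether control plants received nitrate in place of the lead salt, and how many plants made up an RNA sample, the labels do not say. All groups share the accession, so no mutant or transgene enters any comparison.

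The labelled organs were checked on marker genes. On 8 probe sets for the leaf genes LHB1B2, RCA, PSBW and PSAE1, of photosystems, antenna and Rubisco activase, signals summed to between 120 and 172 on the root arrays and to between 22628 and 31335 on the leaf arrays. The only root marker with a named probe set, AT5G66390, measured between 141 and 446 in roots and between 6.08 and 10.4 in leaves. Only 4 of 17 leaf marker loci and 1 of 12 root marker loci had a named probe set. The average array background was 193 on the 50 ppm root array, against between 69.0 and 97.8 on the other arrays.

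Plants take up sulfate through sulfate transporters and activate it with ATP sulfurylase, the enzyme encoded by the APS genes, to adenosine phosphosulfate. APR enzymes reduce that to sulfite, and sulfite reductase, encoded in Arabidopsis by the single gene SIR, reduces sulfite to sulfide in plastids with electrons from ferredoxin. Sulfide is built into cysteine, and from there into glutathione and into phytochelatins, the peptides with which plants bind metals. Among the ATP sulfurylase genes, APS1, APS3 and APS4 are known targets of the microRNA miR395, which accumulates when sulfate is scarce.

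Array signals are linear values scaled to a common trimmed mean. A difference between probe sets in their absolute signal has no meaning, since probes bind with different strength, so each gene is compared only with itself across arrays. All 3 probe set names end in s_at, a suffix that marks probes which may match more than 1 transcript. Of the 8247 probe sets 1423 carry it, and how far related ATP sulfurylase transcripts add to these signals was not tested. In whole organs, fewer cells of a type and less RNA per cell cannot be told apart.

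The first question was the organ in which each gene's transcript was more abundant. APS4 was higher in roots, by 4.37-fold on average, and APS3 was lower in roots, by 2.94-fold. SIR lay between them with root signals 1.47-fold above those of leaves, a difference that did not pass the test. The ATP sulfurylase isoforms APS3 and APS4 therefore had opposite organ preferences at all 3 doses.

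APS4 had signals of 366 in control roots, 827 in 25 ppm roots and 932 in 50 ppm roots. In leaves it measured 86.3 without lead, 138 at 25 ppm and 282 at 50 ppm. Every root value lay above every leaf value, and the lowest root signal, without lead, was still above the highest leaf signal, at 50 ppm. How many of all tested probe sets had no overlap between the organs was not counted.

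For APS4 the root signal was 4.24-fold, 5.97-fold and 3.30-fold that of leaves in dose order. The log2 difference averaged 2.13 ± 0.43 (SD, n = 3 doses). A limma fit that holds dose constant gave 2.13 with a standard error of 0.24 (95% interval 1.52 to 2.73, adjusted p = 0.00108). The signal was higher on 3 of 3 root arrays than on the leaf array of the same dose.

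APS3 ran the other way. Its signals were 76.2 in control roots, 102 in 25 ppm roots and 213 in 50 ppm roots. Leaves gave 224 without lead, 407 at 25 ppm and 463 at 50 ppm. The organs did not overlap here either, although the 50 ppm root signal reached 95.4% of the control leaf signal.

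At matched doses APS3 in roots was 2.93-fold, 3.98-fold and 2.17-fold lower than in leaves. The log2 difference averaged -1.55 ± 0.44 (SD, n = 3 doses), with a standard error of 0.25 in limma (95% interval -2.17 to -0.93, adjusted p = 0.00386), lower in 3 of 3 root arrays. For both isoforms the organ difference was widest at 25 ppm and narrowest at 50 ppm. Summed leaf markers on any root array came to at most 0.761% of the lowest sum on a leaf array, and their part in the APS3 signal of roots was not tested.

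SIR measured 268 in control roots, 218 in 25 ppm roots and 382 in 50 ppm roots, and 156, 191 and 237 in leaves at the same doses. The ranges overlapped, since the 25 ppm root signal lay below that of 50 ppm leaves. At matched doses roots were 1.72-fold, 1.14-fold and 1.61-fold higher. The log2 difference averaged 0.55 ± 0.32 (SD, n = 3 doses), and it did not pass in limma (95% interval -0.01 to 1.12, adjusted p = 0.0859).

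Across all 5395 tested probe sets 31.0% passed as higher in roots and 21.6% as higher in leaves, so an organ difference was common on these arrays. A difference at least as far in the same direction was present in 10.9% of tested probe sets for APS4, 15.7% for APS3 and 40.3% for SIR. Counted by size alone, with no test, 17.5% of probe sets were at least 2-fold higher in roots at all 3 doses, APS4 among them, and 15.7% at least 2-fold lower, APS3 among them. The median log2 difference over all tested probe sets was 0.30 towards roots. The APS4 and SIR differences were larger than this median, and that of APS3 had the opposite sign. APS4 and APS3 passed under each of the 17 alternatives run, and SIR passed under 0 of them.

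**Figure D1:**
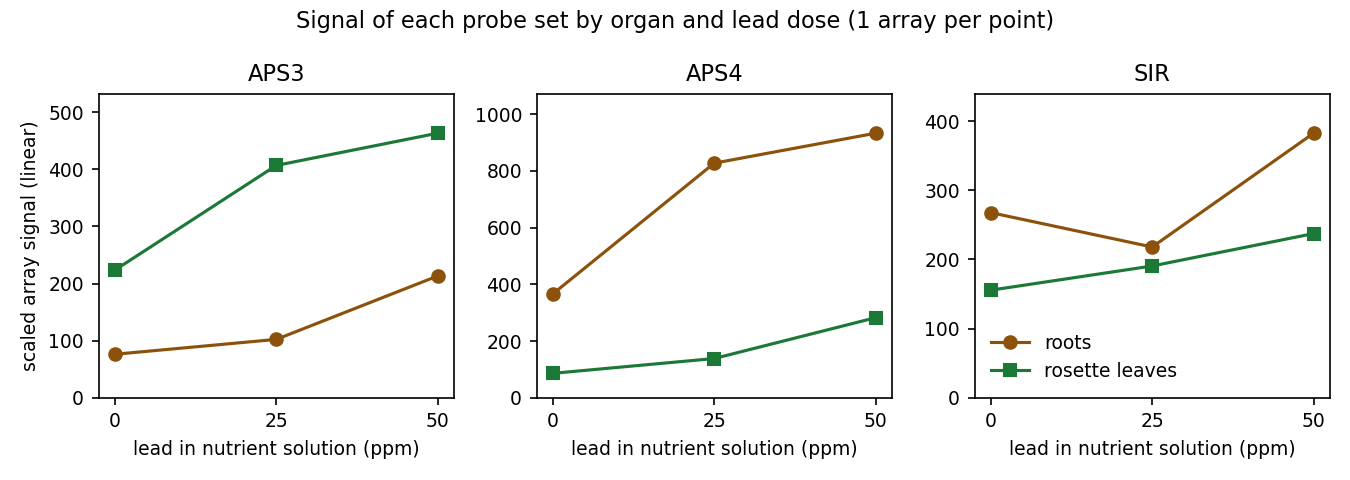
Scaled linear signal (y axis, from 0) of the APS3, APS4 and SIR probe sets against lead in the nutrient solution in ppm (x axis), with roots as brown circles and rosette leaves as green squares and 1 array per point. APS4 is above its leaf signal in roots at all 3 doses, APS3 is below it, and SIR in roots has its lowest value, 218, at 25 ppm.

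**Figure D2:**
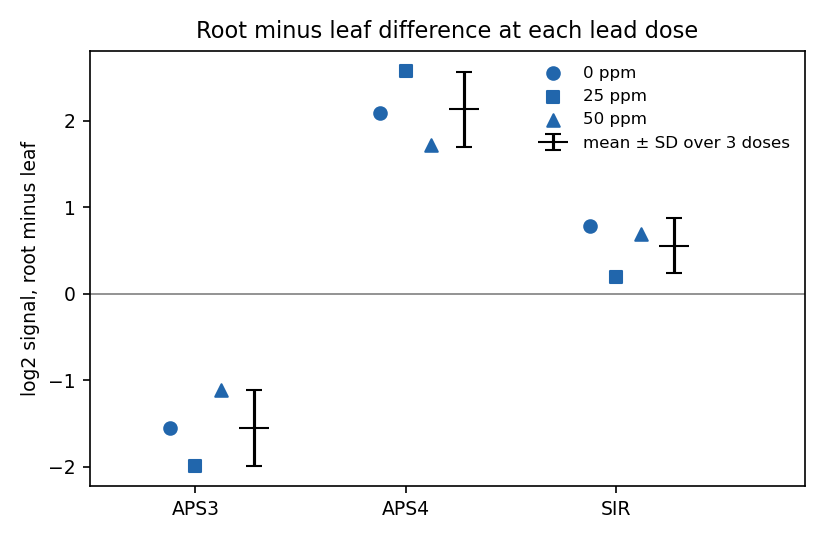
Log2 signal in roots minus leaves (y axis) for each gene (x axis) at 0, 25 and 50 ppm lead, with the mean and SD over the 3 doses as bars. The values lie between 1.72 and 2.58 for APS4, between -1.99 and -1.12 for APS3 and between 0.19 and 0.78 for SIR.

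Whether the isoforms differ from each other in organ preference was tested on the log2 ratio of their signals within each array. A scaling factor common to a whole array does not alter this ratio. The ratio of APS4 to APS3 was 2.26, 3.02 and 2.13 in roots at 0, 25 and 50 ppm. In leaves it was -1.37, -1.55 and -0.71 in the same dose order. Only the distance between the organs can be read here, not the height of the ratio.

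That distance was 3.68 on the log2 scale, or 12.8-fold, with means of 2.47 ± 0.48 in roots and -1.21 ± 0.44 in leaves (SD, n = 3 each). At matched doses it was 3.64, 4.57 and 2.84 at 0, 25 and 50 ppm. The organs did not overlap, and the exact two-sided permutation test gave p = 0.1, the smallest value that 3 arrays against 3 can give. Against SIR, the organ difference of APS4 was further towards roots by 1.57 and that of APS3 further towards leaves, at -2.11 (exact permutation p = 0.1 for each). The Benjamini-Hochberg adjusted value over these 3 pairs was 0.1 in each case. This design could not have reached the threshold of 0.05, so the p-values do not bear on whether the preferences differ.

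**Figure D3:**
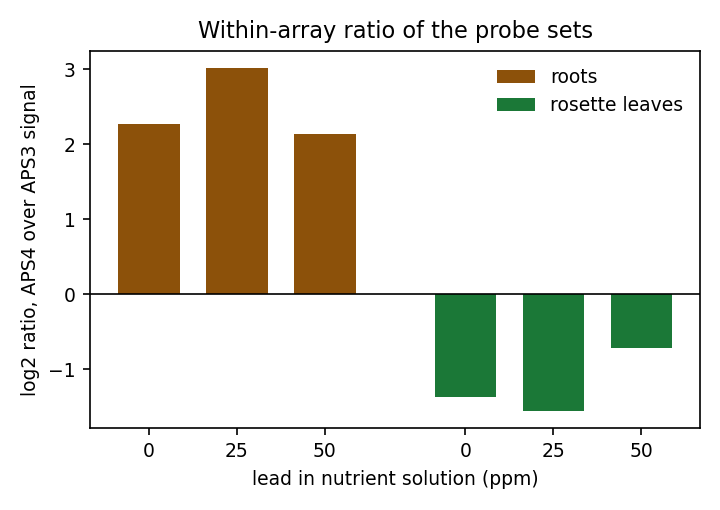
Log2 ratio of APS4 to APS3 signal within each array (y axis) at 0, 25 and 50 ppm lead (x axis), for roots in brown and rosette leaves in green. The 3 root bars lie between 2.13 and 3.02 and the 3 leaf bars between -1.55 and -0.71.

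The second question was the step at each lead dose. Each organ has 1 array per dose, so the folds within an organ carry no replicate error. Both ATP sulfurylase genes were higher at 25 ppm than without lead and higher again at 50 ppm, in roots and in leaves. SIR had that order in leaves only. In roots 18.0% of tested probe sets and in leaves 20.1% had signals in that order, and 3.76% had it in both organs.

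In roots APS4 exceeded the control 2.26-fold at 25 ppm and 2.55-fold at 50 ppm. Between 25 and 50 ppm it differed by 1.13-fold. It met a rule of at least 2-fold at both doses, as did 2.89% of tested probe sets. At 25 ppm alone 4.69% of probe sets were at least 2-fold higher, and at 50 ppm 11.0%.

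APS3 in roots exceeded the control 1.34-fold at 25 ppm and 2.80-fold at 50 ppm. It was 2.09-fold higher at 50 than at 25 ppm. Between these arrays 9.34% of tested probe sets had a change at least as high, and 10.4% met the 2-fold rule. The APS3 value rests on the 50 ppm root array, whose background was high, and the part of that background was not tested. The same limit holds for the 50 ppm root values of APS4 and SIR and for every organ difference at 50 ppm.

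SIR in roots was 1.23-fold lower at 25 ppm than in the control and 1.43-fold higher at 50 ppm. Its signals at the 2 doses thus lay on opposite sides of the control. At 25 ppm in roots its log2 change of -0.30 lay between the lower and upper quartiles of all tested probe sets, -0.32 and 0.30. At 50 ppm a change at least as high as that of SIR was present in 21.8%, so neither change stood out on these arrays.

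In leaves APS4 exceeded the control 1.60-fold at 25 ppm and 3.27-fold at 50 ppm, and its 50 ppm signal was 2.04 times that at 25 ppm. A change as high as that of APS4 at 50 ppm was present in 1.00% of tested probe sets in leaves, and in 1.09% of the 2209 with a mean signal of at least 100. Among all tested probe sets, 4.00% were at least 2-fold higher at 50 than at 25 ppm.

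APS3 in leaves was above the control by 1.82-fold at 25 ppm and by 2.07-fold at 50 ppm. Its 50 ppm signal was 1.14 times that at 25 ppm. In leaves 4.45% of probe sets were at least 2-fold higher at 50 ppm, APS3 and APS4 among them. At 25 ppm the share was 2.87%, and 0 of the 3 genes reached 2-fold there. At both doses it was 0.982%. SIR in leaves stood 1.22-fold above the control at 25 ppm and 1.53-fold at 50 ppm.

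The isoforms differed in where along the doses most of the difference from the control lay. In roots the 25 ppm value of APS4 held 87.1% of the log2 difference between 50 ppm and control, and in leaves that of APS3 held 82.2%. In the organ with the lower signal the shares were 39.9% for APS4, in leaves, and 28.6% for APS3, in roots. For SIR in leaves the share was 48.0%. This pattern was seen after the values were known, rests on 1 array per point, and has no test.

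**Figure D4:**
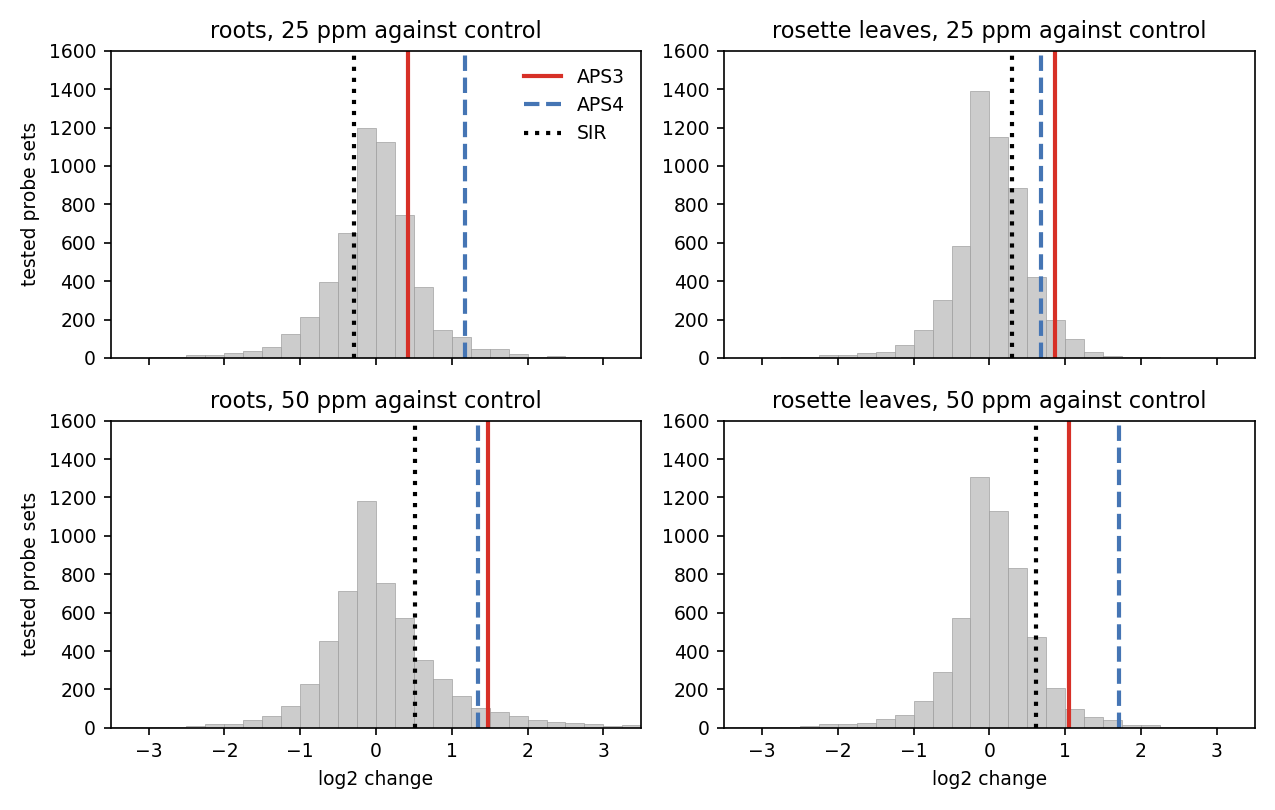
Histograms of the log2 change from the control array over the 5395 tested probe sets, with the change on the x axis, the number of probe sets on the y axis and changes beyond the axis not drawn. Roots are on the left, leaves on the right, 25 ppm above and 50 ppm below. Vertical lines mark APS3, APS4 and SIR. APS4 lies at 1.18 and 1.35 in roots and at 0.68 and 1.71 in leaves, and SIR lies left of 0 at 25 ppm in roots.

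The changes at 25 and 50 ppm within an organ share its control array. A high or low control signal would therefore move both. Over all tested probe sets the median log2 change from control in roots was 0 at 25 ppm and at 50 ppm. In leaves that median was 0.03 at 25 ppm and 0.04 at 50 ppm. The arrays were scaled to a common trimmed mean, and these medians do not show whether the control signal of a single gene was high or low.

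Lead was also tested in limma with 25 and 50 ppm together against the control of each organ, so that the difference between the lead arrays serves as error. In roots the mean log2 change was 1.26 for APS4 with a standard error of 0.50 (adjusted p = 0.791) and 0.95 for APS3 with a standard error of 0.51 (adjusted p = 0.874). SIR had a mean of 0.11 with a standard error of 0.45, and its direction turned to -0.30 without the 50 ppm array. In leaves the means were 1.20 for APS4, 0.96 for APS3 and 0.45 for SIR, with the same standard errors and an adjusted p of 1 for each.

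None of these passed, and 0% of the 5395 probe sets passed in either organ. At an unadjusted p under 0.05 there were 332 probe sets in roots (6.15%) and 134 in leaves (2.48%), and 0 of the 3 genes was among them. Each control here is 1 array, and a step between 25 and 50 ppm counts as error, so this test has little hold on genes whose signal differs between the doses. Without the 25 ppm root array 107 probe sets passed as higher and 64 as lower in roots, with 0 of the 3 genes among them.

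With dose entered as a number within each organ, APS4 and APS3 had unadjusted limma p-values under 0.05 in both organs. The share of all tested probe sets under that value was not counted for this fit, so these calls cannot be set against it. After adjustment 0 probe sets passed in either organ. In roots the log2 change over 50 ppm was 1.48 for APS3 (adjusted p = 0.276) and 1.35 for APS4 (adjusted p = 0.310). In leaves it was 1.71 for APS4 (adjusted p = 0.599) and 1.05 for APS3 (adjusted p = 0.888). For SIR it was 0.51 in roots (adjusted p = 0.727) and 0.61 in leaves (adjusted p = 1). Over the alternatives run, adjusted p of the 3 genes went from 0.211 to 1 in roots and from 0.599 to 1 in leaves, so none passed.

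Each step was also tested across the organs, in a limma fit with organ and dose as terms that was added after the data were seen. In this fit the difference between the organs in a step serves as error, as no group has a replicate array. At 50 ppm against control the log2 change was 1.53 for APS4 with a standard error of 0.30 and 1.27 for APS3 with a standard error of 0.31, each higher in 2 of 2 organs. SIR had 0.56 with a standard error of 0.28. The adjusted p was 0.811 for each of them. APS4 and APS3 had an unadjusted p under 0.05, as did 4.75% of tested probe sets. At 25 ppm against control APS4 had 0.93, APS3 0.64 and SIR -0.0019 (adjusted p = 1 for each). Here APS4 had an unadjusted p under 0.05, as did 2.30% of tested probe sets. Between 50 and 25 ppm the changes were 0.62 for APS3, 0.60 for APS4 and 0.56 for SIR (adjusted p = 0.887 for each). None of the 3 had an unadjusted p under 0.05, as 3.84% of tested probe sets did. For all 3 steps 0% of probe sets passed after adjustment.

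Whether roots and leaves differed in their lead change was tested on the mean of both doses. The root change minus the leaf change was 0.07 for APS4 (95% interval -1.77 to 1.91) and -0.0037 for APS3 (95% interval -1.89 to 1.88) on the log2 scale. For SIR it was -0.34 (95% interval -1.99 to 1.30). These intervals reach beyond 3-fold in both directions for APS3 and APS4, so they do not show that the organs responded alike. Values near 0 come from averaging the doses: for APS3 the change was 0.42 in roots and 0.86 in leaves at 25 ppm, and 1.48 in roots and 1.05 in leaves at 50 ppm. For APS4 it was 1.18 in roots and 0.68 in leaves at 25 ppm, and 1.35 in roots and 1.71 in leaves at 50 ppm. Leaving out the 25 ppm root array gave 0.53 for APS3 and leaving out the 50 ppm root array -0.53. For APS4 the value was 0.58 without the 50 ppm leaf array and -0.45 without the 25 ppm leaf array. In limma 0% of probe sets passed for this difference, and 202 (3.74%) had an unadjusted p under 0.05.

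Few other genes of sulfur metabolism could be read. Of 79 loci in 8 lists, from sulfate transporters to glucosinolates, 5 had a named probe set: the 3 described and 2 more. The other ATP sulfurylase genes, APS1 and APS2, had no named probe set and were not analysed here. The same holds for sulfate transporters, APR and APS kinase genes, cysteine synthesis and glutathione and phytochelatin synthesis. In limma 0 of the 5 passed the threshold for a change with lead in either organ, as did 0% of all tested probe sets. Between organs APS4 and UGT74B1 passed as higher in roots, beside 31.0% of all tested probe sets, and APS3 as higher in leaves, beside 21.6%, so the share among these 5 genes was near that of the array.

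CBL (AT3G57050), cystathionine beta-lyase of methionine synthesis, measured 236, 176 and 122 in roots and 135, 144 and 103 in leaves, at 0, 25 and 50 ppm. Its signal in roots was thus lower at each higher dose, opposite to APS3 and APS4. The mean log2 change with lead was -0.69 in roots (adjusted p = 0.897) and -0.15 in leaves (adjusted p = 1), and neither passed.

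UGT74B1 (AT1G24100), a glucosyltransferase of glucosinolate synthesis, measured 131, 165 and 223 in roots and 86.8, 109 and 118 in leaves at 0, 25 and 50 ppm. Like APS3 and APS4 it had the order control, 25 and 50 ppm in both organs. Its mean log2 change with lead was 0.55 in roots (adjusted p = 0.906) and 0.39 in leaves (adjusted p = 1). In roots it was 1.63-fold higher than in leaves (adjusted p = 0.0373 in limma). Its lowest root signal, 131, lay above its highest leaf signal, 118, and the share of probe sets without such overlap was not counted.

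Likeness of pattern was measured as the root mean square difference of log2 signals over the 6 arrays, each probe set centred on its own mean, against 2304 other tested probe sets that name 1 gene. Nearest to APS3, at 0.18, was AT5G62350, with 341, 393 and 944 in roots and 1289.5, 1994 and 2075 in leaves at 0, 25 and 50 ppm. Next came AT2G21130 and AT2G35390, both at 0.23. The median distance from APS3 was 1.17, and APS4 lay at 1.88, farther than 1988 of the 2304.

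Nearest to APS4 were scpl28 (AT2G35770), a serine carboxypeptidase-like gene, at 0.37, AT4G36010 at 0.39 and AT1G49470 at 0.40. The first of these has signals under 8, the floor, in leaves at 0 and 25 ppm, and the second at 25 ppm. AT1G49470, measured above the floor throughout, had 123, 292 and 227 in roots and 53.1, 56.3 and 108 in leaves. None of the 2304 came as close to APS4 as the nearest did to APS3 or SIR.

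Nearest to SIR were AT2G30620, AT1G15280 and AT4G14990, each at 0.15. AT2G30620 measured 815, 705 and 1022 in roots and 453, 460.4 and 600.2 in leaves, with its lowest root signal at 25 ppm as for SIR. SIR had a small range over the arrays and its median distance was 0.60, so close neighbours were more frequent than for the ATP sulfurylase genes.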

How the data were processed

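RNA of 6 samples was measured on an Affymetrix array of 8297 Arabidopsis probe sets, per the labels. The deposited values are linear signal intensity per probe set and were taken as deposited; which software made them is unstated here. All 6 columns of values were used. The 50 control probe sets were set aside. Arrays were brought to the same trimmed mean (2% from each end), values under the 30th percentile (8.00) raised to it, and log2 taken. Tested were 5395 probe sets whose highest signal was at or above the overall median (25.3). Names came from the platform annotation through gene identifiers of the RefSeq table for TAIR10.1; 70 probe sets named several genes and were not named.

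Root was compared with leaf in limma 3.58.1 (R 4.3.3, lmFit, then eBayes with a trend; two-sided p-values, Benjamini-Hochberg adjusted over all tested probe sets, threshold 0.05) with dose as a term, and lead with control in 4 groups of organ and lead. A test of each dose step across organs was added after the data were seen. Each fit has 2 residual degrees of freedom, and eBayes moderates the spread of each probe set with that of all tested probe sets. The p-values thus rest partly on this shared spread. They reflect only how far these single arrays spread, as no group has a replicate array. Named genes are the 3 genes, all others of the sulfur lists and the 3 nearest patterns of each. The genes and lists were chosen with earlier results of these data known. On simulated data for 5395 probe sets, 50 for each size, 98% of log2 differences of 2 were called for root against leaf and 62% for lead in roots; at 1 the shares were 50% and 12%. Alternatives were other scalings, floors, filters and fits and leaving out each array. The number of arrays limits the precision.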

Additional observations from a re-analysis of the deposited data

How the results depend on the processing

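The root against leaf differences of APS4, APS3 and SIR kept their direction and their side of the threshold under all 17 alternatives, with log2 values of 1.90 to 2.33, -1.77 to -1.34 and 0.44 to 0.74, and adjusted p of 0.000829 to 0.0209, 0.00315 to 0.0352 and 0.0729 to 0.303 in limma. For lead, 0 of the 3 genes passed in either organ under any of the 15 alternatives. Leaving out 1 array gave 1.18 to 1.35 for APS4, 0.42 to 1.48 for APS3 and -0.30 to 0.51 for SIR in roots, and 0.68 to 1.71, 0.86 to 1.05 and 0.29 to 0.61 in leaves. For the root minus leaf change it gave -0.45 to 0.58 for APS4, -0.53 to 0.53 for APS3 and -0.75 to 0.064 for SIR. Near 0, this difference turned for APS3 with quantile normalization (0.016), scaling on well measured probe sets (0.030) and dose as a number (0.43), and for APS4 with dose as a number (-0.36); the cause was not tested. The distance between organs of the ratio of APS4 to APS3 was 3.41 to 3.93 without 1 array. It was 3.72 with quantile normalization and 3.43 with an offset of 16 in place of the floor.

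Counts over all probe sets moved more. Without a filter 5 were higher and 31 lower with lead in roots, 3 and 19 in leaves, and 26 and 32 for the difference between organs; with an offset of 16 in place of the floor 1 was lower in roots. Without 1 array the counts were 0 to 107 higher and 0 to 64 lower in roots, the highest without the 25 ppm root array, and 0 to 78 and 0 to 43 for the difference. For root against leaf they were 1111 to 1532 higher in roots and 921 to 1149 higher in leaves, with 1111 when the control root array was left out, and 773 and 583 at a mean signal of at least 100, where fewer were tested. At least 2-fold higher at both doses were 96 in roots and 23 in leaves with the floor at the 50th percentile, 118 in leaves at the 10th, 77 and 14 with the offset, 63 and 16 at a mean signal of at least 100, 378 and 251 by a 1.5-fold rule and 51 and 7 by a 3-fold rule, against 156 and 53. With other floors or the offset, probe sets at least 2-fold higher at 25 ppm were 137 to 348 in roots, against 253, and 40 to 304 in leaves, against 155. At 50 ppm they were 380 to 677 in roots, against 591, and 115 to 329 in leaves, against 240. At 50 over 25 ppm they were 335 to 643 in roots, against 563, and 114 to 290 in leaves, against 216.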
